A study of Mus musculus with 2 samples.

Results

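The miR-181 family of the mouse is made from 6 precursor genes, Mir181a-1, Mir181b-1, Mir181a-2, Mir181b-2, Mir181c and Mir181d, which lie in 3 clusters of 2 genes. All 6 were found, out of 1973 annotated miRNA genes, by looking up the gene names in the annotation and taking the read counts on each gene's own strand. The samples were 2 microRNA-seq libraries of fetal liver at embryonic day 15.5 from the strain B6NCrl, labelled healthy, with no treatment or altered allele in the labels. Replicate 1 was total RNA of a pool of 78 embryos and replicate 2 of a pool of 62, each of both sexes, and RNA under 30 nucleotides was taken. There was thus 1 group and no contrast between conditions, and the spread between libraries is that of pools and library making.

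A miRNA gene is transcribed as a longer RNA that is cut first to a hairpin and then to a short duplex, whose arms are named 5p and 3p after their side of the hairpin. One strand is loaded into an Argonaute protein and finds messenger RNAs mainly through its seed, bases 2 to 8. The miR-181 family is known from blood cells: miR-181a tunes the response of developing T cells to antigen by lowering phosphatases, and miR-181b lowers the antibody-diversifying enzyme AID in B cells. The fetal liver forms blood at this stage, and the organ holds hepatocytes, red cell precursors, leukocytes and vessel cells together.

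The mature sequences show what a count can and cannot tell apart. In the 5p arms, from RefSeq on GRCm38.p6 and written 5′ to 3′ with the seed in capitals, 4 different molecules come from the 6 genes:
miR-181a-5p (Mir181a-1 and Mir181a-2): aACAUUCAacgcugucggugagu
miR-181b-5p (Mir181b-1 and Mir181b-2): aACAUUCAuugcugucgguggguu
miR-181c-5p (Mir181c): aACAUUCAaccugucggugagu
miR-181d-5p (Mir181d): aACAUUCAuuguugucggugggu

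All 4 of these 5p arms had the same seed. The 5p arm of Mir181a-1 was identical to that of Mir181a-2, and the 5p arm of Mir181b-1 to that of Mir181b-2. The 5p arms of Mir181c and Mir181d were each listed for 1 gene. Against miR-181a-5p, miR-181c-5p differed by an edit distance of 1, as it is a base shorter. Over their shared length, miR-181b-5p and miR-181d-5p differed by the single substitution C12U, counted from 1 at the 5′ end with the base of miR-181b-5p first.

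The 3p arms are the other strand of each duplex. They are shown because each of the 6 was different and was listed for 1 gene, with the seed again in capitals:
miR-181a-1-3p: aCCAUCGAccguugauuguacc
miR-181a-2-3p: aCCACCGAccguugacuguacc
miR-181b-1-3p: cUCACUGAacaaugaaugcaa
miR-181b-2-3p: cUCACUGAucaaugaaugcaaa
miR-181c-3p: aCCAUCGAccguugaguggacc
miR-181d-3p: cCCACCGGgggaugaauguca

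By seed, the 3p arms fell into 4 groups. The arms of Mir181a-1 and Mir181c shared 1 seed, those of Mir181b-1 and Mir181b-2 another, and those of Mir181a-2 and Mir181d each had a seed of their own. The 3p arms of Mir181a-1 and Mir181a-2 differed by U5C and U16C, with the base of miR-181a-1-3p first. The 3p arms of Mir181b-1 and Mir181b-2 differed over their shared length by A9U, with the base of miR-181b-1-3p first.

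The hairpins of the a and b genes show how far each shared 5p arm extends. The mature arms are in capitals:
Mir181a-1: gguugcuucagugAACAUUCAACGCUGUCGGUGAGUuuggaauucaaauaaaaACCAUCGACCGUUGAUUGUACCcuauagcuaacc
Mir181a-2: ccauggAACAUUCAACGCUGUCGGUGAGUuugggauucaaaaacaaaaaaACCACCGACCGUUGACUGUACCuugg
Mir181b-1: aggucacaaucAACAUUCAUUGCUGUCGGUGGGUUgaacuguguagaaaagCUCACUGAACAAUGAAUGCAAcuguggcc
Mir181b-2: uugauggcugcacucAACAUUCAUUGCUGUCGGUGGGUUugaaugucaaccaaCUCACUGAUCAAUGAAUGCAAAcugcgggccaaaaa

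Around the 5p arm, the hairpins of Mir181a-1 and Mir181a-2 were identical over 28 bases, 1 before the arm and 4 after it. A read that starts at the first base of miR-181a-5p must therefore be at least 28 bases long to differ between these loci. For Mir181b-1 and Mir181b-2 the identical stretch was 26 bases, 2 before the arm and 0 after it. A read copied without change from the first base of miR-181b-5p thus differs from 25 bases on. The base after the arm is g in Mir181b-1 and u in Mir181b-2. How reads with an altered or added end base were placed was not tested. The deposited counts leave out reads that map to several places, which were 29.3% of all reads in replicate 1 and 31.1% in replicate 2. How many of those reads were miR-181a-5p or miR-181b-5p was not tested. The levels of the 4 a and b genes given here are therefore levels of the reads that could be told apart, and so is any level of the whole family.

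Positions are from annotation release M21 on GRCm38. Mir181a-1 (ENSMUSG00000065565.1, chromosome 1, 137966455 to 137966541, plus strand) and Mir181b-1 (ENSMUSG00000065458.1, 137966639 to 137966718) lie 97 bases apart. Each overlaps an exon of A430106G13Rik, a long intergenic noncoding RNA, and an intron of Gm4258, both on the same strand. On the opposite strand, each overlaps an intron of Gm26936, also a long intergenic noncoding RNA. Mir181a-2 (ENSMUSG00000065423.1, chromosome 2, 38852735 to 38852810, plus strand) and Mir181b-2 (ENSMUSG00000065578.1, 38853830 to 38853918) lie 1019 bases apart in an intron of Nr6a1, an orphan nuclear receptor gene on the opposite strand. Mir181b-2 also overlaps an exon of Gm44144, on the opposite strand as well. Mir181c (ENSMUSG00000065483.1, chromosome 8, 84178873 to 84178961, minus strand) and Mir181d (ENSMUSG00000076338.1, 84178716 to 84178787) lie 85 bases apart in an intron of Nanos3, a germ cell gene of the same strand. Release M21 carries a later version of the Mir181c entry than the count tables, so its position may differ from the one used in counting.

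Among reads that could be told apart, the family was a small part of the fetal liver profile. Its share of the left-out reads was not tested. Its 6 genes had 13093 sense counts in replicate 1 and 6636 in replicate 2, out of 5529166 and 3169882. This was 0.237% of sense miRNA counts in replicate 1 (exact Clopper-Pearson 95% interval 0.233 to 0.241) and 0.209% in replicate 2 (0.204 to 0.214), with a mean of 0.223% ± 0.0194 (SD, n = 2). Intervals cover counting error only, since reads amplified by PCR are not independent molecules. In whole tissue, fewer cells of a type and less RNA per cell cannot be told apart. On the strand opposite to the 6 genes, 0 counts lay in either library, which allows up to 3 counts, or 0.543 and 0.946 CPM (a gene's counts divided by the library's sense miRNA counts, times 1e+06). Over all genes, 8.77% and 9.12% of assigned reads lay on the opposite strand. These reads were unevenly spread and give no rate for a typical gene. Mir142b alone held 193651 of the 531453 opposite-strand counts in replicate 1 and 131496 of the 318094 in replicate 2.

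The c/d cluster on chromosome 8 held most of the counts. It had 9545 counts in replicate 1 and 4884 in replicate 2, which was 72.9% of family counts (72.1 to 73.7) and 73.6% (72.5 to 74.7). The a-1/b-1 cluster on chromosome 1 had 2104 and 1107 counts, or 16.1% (15.4 to 16.7) and 16.7% (15.8 to 17.6). The a-2/b-2 cluster on chromosome 2 had 1444 and 645 counts, or 11.0% (10.5 to 11.6) and 9.72% (9.02 to 10.5). The intervals of the a-2/b-2 share did not overlap between the libraries. The order of the clusters was the same in both libraries and the ranges of the 3 clusters did not overlap. The c/d cluster stood 2.69-fold above the 4 a and b genes together in replicate 1 and 2.79-fold in replicate 2. The c/d genes are the ones whose 5p arms no other gene shares, and the part of the left-out reads in this lead was not tested.

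**Figure D1:**
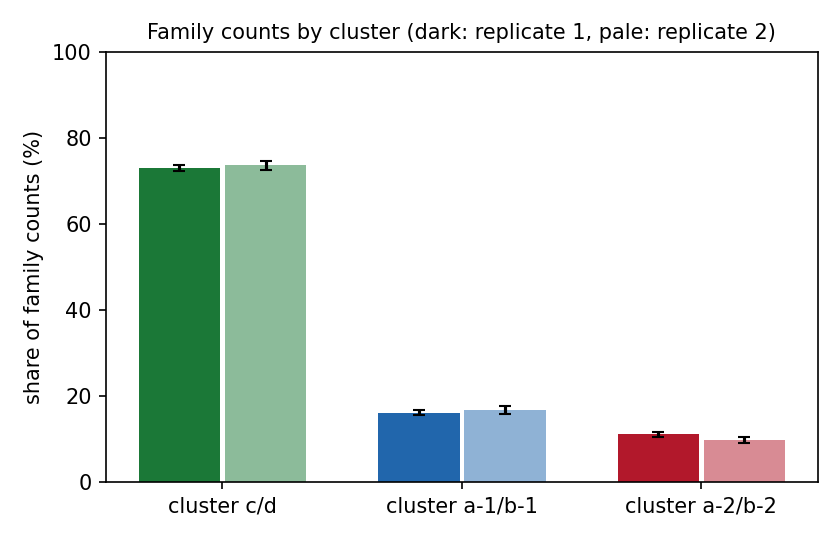
Share of the family's sense counts (percent, vertical axis from 0) held by each of the 3 clusters, with dark bars for replicate 1, pale bars for replicate 2, and error bars for exact 95% intervals of counting error. The c/d cluster holds 72.9% and 73.6%, the a-1/b-1 cluster 16.1% and 16.7%, and the a-2/b-2 cluster 11.0% and 9.72%.

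Mir181c was the highest member. It had 5805 counts in replicate 1 and 3046 in replicate 2, or 1050 and 961 CPM, with a mean of 1005 ± 62.9 CPM (SD, n = 2) and rank 87 among all genes. Mir181d, its neighbour, had 3740 and 1838 counts, or 676 and 580 CPM, with a mean of 628 ± 68.3 CPM (n = 2) and rank 111. Mir181c was above Mir181d in both libraries, and their ranges did not overlap. Counts of Mir181c were 1.55 times those of Mir181d in the first library (exact 95% limits 1.49 and 1.62) and 1.66 times in the second (limits 1.56 and 1.76), so the genes of this cluster were within 2-fold of each other.

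In the other clusters, 1 gene of each pair gave nearly all counts. On chromosome 1 it was the a gene. Mir181a-1 had 2060 and 1091 counts, or 373 and 344 CPM, with a mean of 358 ± 20.1 CPM (n = 2) and rank 132. Mir181b-1, 97 bases downstream on the same strand, had 44 and 16 counts, or 7.96 and 5.05 CPM, with a mean of 6.50 ± 2.06 CPM (n = 2) and rank 310. Mir181a-1 stood 46.8-fold above Mir181b-1 in replicate 1 (34.7 to 64.6) and 68.2-fold in replicate 2 (41.8 to 120). Those intervals overlap, and whether the ratio differed between the libraries was not tested.

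On chromosome 2 it was the b gene. Mir181b-2 had 1363 and 614 counts, or 247 and 194 CPM, with a mean of 220 ± 37.3 CPM (n = 2) and rank 151. Mir181a-2 had 81 and 31 counts, or 14.6 and 9.78 CPM, with a mean of 12.2 ± 3.44 CPM (n = 2) and rank 279. Mir181b-2 stood 16.8-fold above Mir181a-2 in replicate 1 (13.4 to 21.3) and 19.8-fold in replicate 2 (13.8 to 29.4). The leading gene was thus the a gene in 1 paralogous cluster and the b gene in the other, in both libraries.

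The order of levels was Mir181c, Mir181d, Mir181a-1, Mir181b-2, Mir181a-2 and Mir181b-1 in each library. No neighbours in this order had overlapping values over the libraries. The last step was the least firm, because the counting intervals of Mir181a-2 in replicate 2 (6.64 to 13.9 CPM) and Mir181b-1 in replicate 1 (5.78 to 10.7 CPM) overlap. Within a library, Mir181a-2 was 1.84-fold above Mir181b-1 in replicate 1 (1.26 to 2.72) and 1.94-fold in replicate 2 (1.03 to 3.79). A miRNA read covers the whole mature arm, so CPM was not divided by length. Per base of hairpin, the levels were 11.3 CPM for Mir181c, 8.72 for Mir181d and 4.12 for Mir181a-1. They were 2.47 for Mir181b-2, 0.161 for Mir181a-2 and 0.0813 for Mir181b-1, which is the same order. The hairpins, of 72 to 89 bases, were too alike in length for this step to change the order. All 6 members had at least 10 counts in both libraries, the detection minimum, which 352 genes reached. The median level of those 352 genes was 135 CPM, and 4 of the 6 members lay above it.

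**Figure D2:**
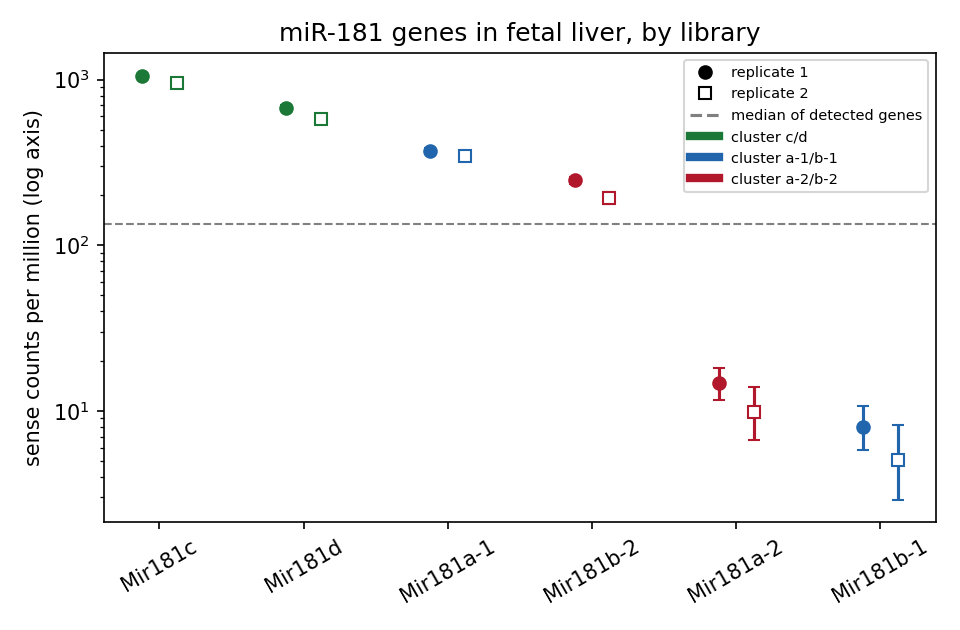
Level of the 6 miR-181 genes in CPM (vertical log axis), with filled circles for replicate 1, open squares for replicate 2, bars for exact 95% counting intervals, colours for the clusters and a dashed line at 135 CPM, the median of detected genes. Mir181c, Mir181d, Mir181a-1 and Mir181b-2 lie above the line in both libraries, while Mir181a-2 and Mir181b-1 lie at or below 14.6 CPM.

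The paralogous pairs were set beside other gene pairs built the same way, in which exactly 2 genes give the same mature arm and each also has an arm of its own. There were 14 such pairs with both genes detected, the miR-181 pairs included. Mir181b-2 stood 31.0-fold above Mir181b-1 in replicate 1 (22.9 to 42.8) and 38.4-fold in replicate 2 (23.4 to 67.6). Mir181a-1 stood 25.4-fold above Mir181a-2 in replicate 1 (20.4 to 32.2) and 35.2-fold in replicate 2 (24.6 to 52.1). By the ratio of mean levels these ranked 2 and 3 of the 14, after Mir194-2 over Mir194-1, and the median ratio was 7.29. The pairs ranged down to 1.03 for Mir30c-2 over Mir30c-1. These ratios describe reads that could be told apart, and the total output of each locus was not measured.

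**Figure D3:**
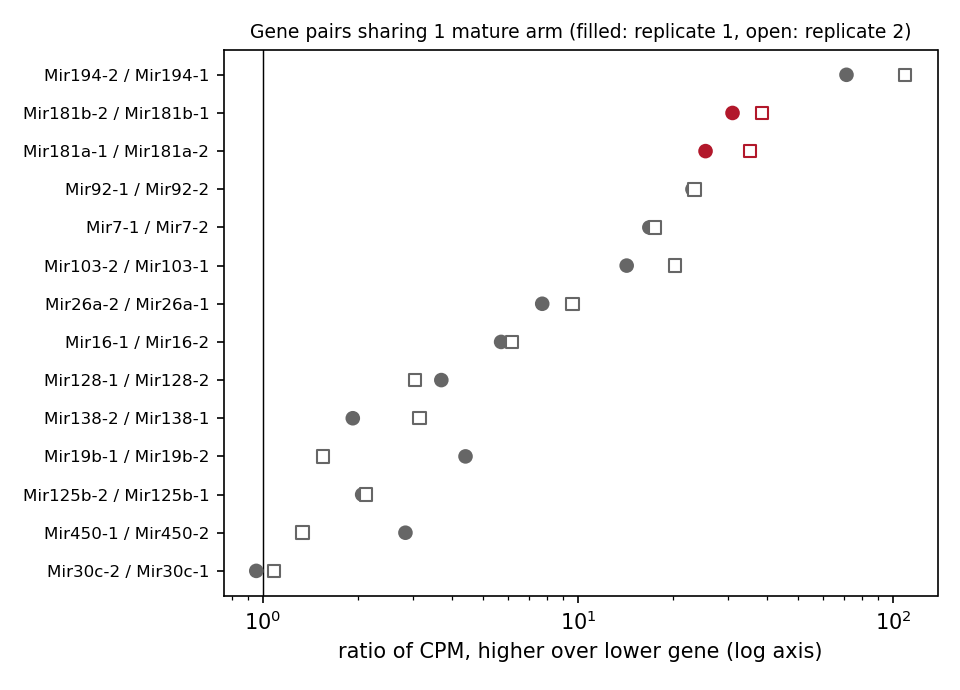
Ratio of CPM between the higher and the lower gene (horizontal log axis) for the 14 gene pairs that share 1 mature arm and are detected at both genes, with filled circles for replicate 1, open squares for replicate 2 and the miR-181 pairs in red. The miR-181 pairs lie between 25.4 and 38.4, below only Mir194-2 over Mir194-1.

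The genes nearest in level to the leading member of each cluster were found by Euclidean distance of log2(CPM + 1) over the 2 libraries. Nearest to Mir181c were Mir149 at 985 ± 75.4 CPM (distance 0.0469) and Mirlet7b at 963 ± 39.3 CPM (0.0926). Nearest to Mir181a-1 were Mir495 at 367 ± 32.9 CPM (0.0682) and Mir221 at 349 ± 1.46 CPM (0.102). Nearest to Mir181b-2 were Mir145a, a miRNA of smooth muscle, at 216 ± 37.5 CPM (0.0354) and Mirlet7a-2 at 212 ± 21.4 CPM (0.120). Likeness over 2 libraries of 1 group is closeness of level only.

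Tissue and blood markers give the setting for these levels. Mir122, the main hepatocyte miRNA, was the highest gene of all in both libraries. Of the erythroid genes, Mir451a stood at 13751 ± 6940 CPM (n = 2), Mir144 at 8347 ± 807 CPM and Mir486 at 766 ± 73.4 CPM, and the myeloid gene Mir223 at 18838 ± 901 CPM. Among lymphocyte-linked genes, Mir342 stood at 1121 ± 106 CPM, beside Mir181c, while Mir155 stood at 103 ± 10.1 CPM and Mir150, a miRNA of mature lymphocytes, at 19.1 ± 0.300 CPM. Mir181c thus lay below Mir223, Mir451a and Mir144 and above Mir486, Mir155 and Mir150 in both libraries. Of 21 miRNAs listed for blood lineages and blood stem cells, 20 were in the tables and 19 were detected, and 10 of the 20 had a mean level above that of Mir181c. The median of the 20 was 944 CPM. Mir142 was not analysed here.

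All 6 members, which lie in 3 clusters, had a lower scaled level in replicate 2 than in replicate 1. Over all genes tested, the median log2 ratio of replicate 2 over replicate 1 also lay below 0, at -0.04. Of the members, 4 passed the test between the libraries. That test was a two-sided exact binomial test of each gene's counts against library sizes scaled by TMM in edgeR, with Benjamini-Hochberg adjustment over all 456 genes tested. It compares the 2 libraries within counting error, not conditions. Of the 456 genes, 39.0% passed, 20.8% lower and 18.2% higher in replicate 2, and 62.0% of the 187 genes whose mean reached 100 CPM passed. Of the 6 members, 4 passed, all lower, and these were the 4 above 100 CPM. Since most genes at that level passed in one direction or the other, the count of 4 is not particular to the family.

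Mir181b-2 differed most among the 4, with a log2 ratio of replicate 2 over replicate 1 of -0.38 (exact 95% interval -0.52 to -0.25, exact binomial test, adjusted p = 1.90e-07). Of the 187 genes at 100 CPM or more, 4 had a lower ratio. Mir181d had a log2 ratio of -0.26 (-0.34 to -0.18, exact binomial test, adjusted p = 1.81e-09), Mir181c of -0.16 (-0.23 to -0.10, adjusted p = 2.10e-06 by the same exact test) and Mir181a-1 of -0.15 (-0.26 to -0.04, adjusted p = 0.0170 by the same exact test). With library totals in place of TMM, Mir181a-1 did not pass (exact binomial test, adjusted p = 0.0828). All 4 ratios were smaller in size than 2 SDs of the ratios of genes at 100 CPM or more, whose SD was 0.20. That SD includes genes with far larger ratios, such as Mir451a at -1.11. By size, 7 of these genes had a larger ratio than Mir181b-2 and 23 a larger one than Mir181d. For Mir181c the number was 56 and for Mir181a-1 it was 69. Mir181a-2, at -0.62 (-1.27 to -0.01, exact binomial test, adjusted p = 0.0951), and Mir181b-1, at -0.69 (-1.62 to 0.16, adjusted p = 0.213 by the same exact test), did not pass at this depth.

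The median log2 ratio of the 6 members was -0.32, against -0.04 over all genes tested. The members are not independent loci, since each cluster holds 2 of them. The marker lists are given by the same test, for which 39.0% of all genes passed. Of the 3 hepatocyte markers Mir122, Mir192 and Mir194-2, 3 were lower in replicate 2 by the same test, and together they held 18.7% of sense counts in the first library and 17.3% in the second. Of the 3 erythroid markers, Mir144 and Mir486 were higher and Mir451a lower, with summed shares of 2.71% and 1.86%. Of the 3 lymphocyte-linked genes, Mir342 was lower and Mir155 and Mir150 did not pass, with summed shares of 0.131% and 0.117%. In the other fixed lists, 1 of 3 leukocyte genes tested was lower and 0 were higher. The endothelial gene Mir126a was lower. Among 3 stem and progenitor genes, 0 were higher and 0 lower, and among 4 mesenchymal genes, 1 was higher and 2 were lower. Of the 19 blood-list genes tested, 2 were higher and 7 lower in replicate 2, with a median log2 ratio of -0.07. Over all genes tested, 18.2% were higher and 20.8% lower. Most blood-list genes lay above 100 CPM, a level at which 62.0% of genes passed. The part of these cell types in the lower miR-181 levels of replicate 2 was not tested.

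**Figure D4:**
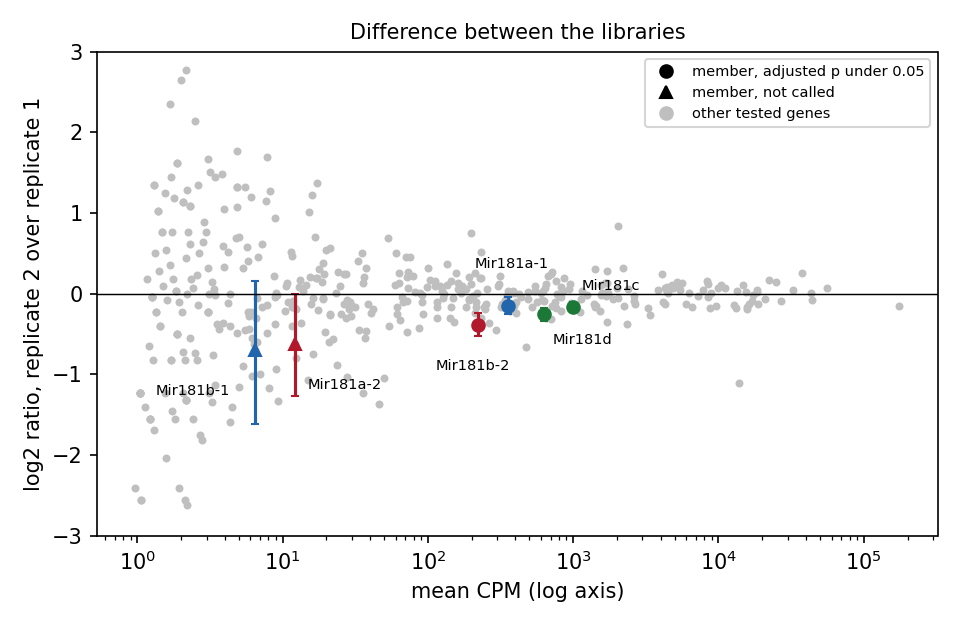
Log2 ratio of replicate 2 over replicate 1 (vertical axis) against mean CPM (horizontal log axis) for 451 of the 456 genes tested in grey, the other 5 lying beyond the axis, and for the 6 members in the cluster colours with exact 95% intervals. Circles mark the 4 members that passed the test and triangles Mir181a-2 and Mir181b-1, which did not; all 6 lie below 0.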

How the data were processed

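Small RNA libraries from 2 pools of fetal liver were analysed as 1 group. The authors deposited whole-number read counts per miRNA gene with no normalization, on assembly mm10 with annotation release M4, per the deposited text files. The aligner was not given in the sources used here, nor was the counting program. Reads assigned to no gene stayed out of all totals. Counts on the gene's own strand were used, summing to 5529166 and 3169882, and CPM divides by these sums. Names came from release M21, which matched 1894 of 1973 identifiers, and sequences from the RefSeq table. All 6 members had mature sequences and 5 a hairpin there.

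With 1 group, edgeR's quasi-likelihood test has no contrast. Libraries were compared per gene with at least 10 counts summed, by a two-sided exact binomial test (scipy 1.17.1) at TMM sizes from edgeR 4.0.16, where the factors used the 352 genes with at least 10 counts in both libraries. DESeq2 1.42.0 gave alternative size factors. The threshold was an adjusted p of 0.05. The 2 libraries were not 1 library deposited again: chi-square per degree of freedom was 68.6. The test was checked on counts simulated with counting error only, so that check does not cover variation between pools. Named genes were the members, the 2 nearest in level to each cluster's leading member, and fixed marker and blood lists; the pairs sharing an arm were added later. Members and lists were chosen with earlier results of these data known. Alternatives were other scalings, count minimums, strands and library totals.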

Additional observations from a re-analysis of the deposited data

How the results depend on the processing

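Each single library gave the same order of the 3 clusters and of the 6 members. Levels per base of hairpin, an alternative chosen after seeing the data, also kept the order of the members. That alternative could not have changed it, because the hairpins were all 72 to 89 bases long. The cluster shares were 72.9% and 73.6%, 16.1% and 16.7%, and 11.0% and 9.72% in the single libraries. With 0 counts on the opposite strand, adding the strands cannot change the order or the cluster shares. The family share was 0.203% with both strands together, 0.271% with Mir122 left out of the total, and 0.237% and 0.209% in the single libraries. Genes that differed between the libraries numbered 161 to 186 over 6 alternatives, against 178 of 456 tested. The share that passed moved with the count minimum, as the number tested changed. It was 161 of 319 genes at a minimum of 50 counts and 171 of 693 at a minimum of 1. The log2 ratios of all 6 members stayed below 0 in the 6 alternatives, none of which could have turned a sign. The other scalings moved every ratio alike, by at most 0.0362, and the member ratio nearest 0 was -0.15. Count minimums leave the ratios as they are, and adding the strands changed only the library sizes for the members. Of the calls 1 was lost, that of Mir181a-1 with unscaled totals (exact binomial test, adjusted p = 0.0828, range over alternatives 0.0127 to 0.0828). Leaving out a library leaves no ratio between libraries. No paired analysis was possible because there was 1 group. Depth limits Mir181b-1 and Mir181a-2, with 16 and 31 counts in replicate 2.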

Other observations

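Sharing of a mature arm was also looked at over the whole table, as values only. Of 916 genes with a mature sequence in the RefSeq table, 87 had an arm identical to that of another gene, and 41 of these were detected, with a median of 37.4 CPM. Of the 829 with no shared arm, 276 were detected, with a median of 170 CPM. Among the 4 miR-181 genes with a shared arm, Mir181a-1 at 358 CPM and Mir181b-2 at 220 CPM lay above the first median and Mir181a-2 and Mir181b-1 below it.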
